A study of Mus musculus with 6 samples.

Results

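The genes described here encode receptors, bridging proteins and engulfment proteins with which macrophages recognise and take up apoptotic cells. They are the 10 genes Mertk, Axl, Tyro3, Gas6, Pros1, Mfge8, Cd300lf, Elmo1, Dock1 and Dock2, picked by gene symbol from the 38087 genes of the table, in which each has 1 row. RNA sequencing was done on bone marrow-derived macrophages of C57BL/6J males, aged 8 to 10 weeks by the culture protocol and 2 to 4 months by the sample labels. All cultures grew for 7 days in M-CSF (macrophage colony-stimulating factor, 10 ng/ml), were plated again without it and rested for 24 h. One group was exposed to 10 nM resolvin D1 (RvD1), a docosahexaenoic acid product with ALX/FPR2 as a receptor, for 6 h, and the other group is labelled untreated control. Each group had 3 libraries. The labels name no genetic change, no vehicle for the controls and no mouse or culture behind a library, so the spread between libraries may be technical.

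Dying cells expose phosphatidylserine on their surface. The bridging proteins Gas6 and protein S (Pros1) bind this lipid and the TAM receptor tyrosine kinases Tyro3, Axl and Mertk, while Mfge8 links it to the integrins alpha-v beta-3 and alpha-v beta-5. Cd300lf is a phosphatidylserine-binding receptor of myeloid cells with inhibitory motifs. Inside the phagocyte, Elmo1 with Dock1 or Dock2 activates the small GTPase Rac and so drives the actin cup that closes around the corpse. In resident and M-CSF-grown macrophages Mertk is the TAM receptor most often linked to uptake of apoptotic cells. The comparison addresses whether RNA of these genes differs 6 h after RvD1.

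In 4 of the 10 genes the RvD1 and untreated libraries did not overlap, as in 25.4% of all tested genes. Among genes with a mean log2 level of at least 7, as all members have, the share was 34.1%. The RefSeq promoters of these 4 members are shown because their groups were apart. Each line gives the 250 bases before the annotated start, 5′ to 3′ on the gene's strand (GRCm38.p6, the assembly of mm10), with GC boxes (GGGCGG) and TATAA elements in capitals, on either strand. No motif searched overlapped one of another kind in these 4 windows.
Mfge8 (chr7:79149061-79149310, minus strand): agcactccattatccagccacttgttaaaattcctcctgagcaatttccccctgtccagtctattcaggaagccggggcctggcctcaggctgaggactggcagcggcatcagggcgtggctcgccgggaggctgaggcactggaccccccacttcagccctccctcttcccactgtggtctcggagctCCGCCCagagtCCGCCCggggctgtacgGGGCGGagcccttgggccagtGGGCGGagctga
Gas6 (chr8:13494536-13494785, minus strand): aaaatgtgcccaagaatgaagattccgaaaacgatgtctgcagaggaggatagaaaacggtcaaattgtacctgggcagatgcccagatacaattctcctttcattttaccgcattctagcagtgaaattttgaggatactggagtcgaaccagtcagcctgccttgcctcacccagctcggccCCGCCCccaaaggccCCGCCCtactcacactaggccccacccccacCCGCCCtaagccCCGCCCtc
Pros1 (chr16:62854057-62854306, plus strand): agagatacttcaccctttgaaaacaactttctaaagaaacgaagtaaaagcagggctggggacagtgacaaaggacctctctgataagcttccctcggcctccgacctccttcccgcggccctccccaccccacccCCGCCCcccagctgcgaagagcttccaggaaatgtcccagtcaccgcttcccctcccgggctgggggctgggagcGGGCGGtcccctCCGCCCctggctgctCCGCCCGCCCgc
Cd300lf (chr11:115133993-115134242, minus strand): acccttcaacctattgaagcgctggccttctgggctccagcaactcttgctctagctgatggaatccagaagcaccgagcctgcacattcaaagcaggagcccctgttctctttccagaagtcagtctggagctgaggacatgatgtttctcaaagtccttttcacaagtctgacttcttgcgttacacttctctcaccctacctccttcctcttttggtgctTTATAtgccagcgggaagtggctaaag
The 3 bridging proteins had GC boxes close to the start, 4 in Mfge8, 4 in Gas6 and 5 in Pros1, and no TATAA. The window of Cd300lf had none and held 1 TATAA on the opposite strand, printed as its complement TTATA, at position -27 from the start. RefSeq promoters were found for 10 of the 10 members, of which 8 held a GC box, against 32.7% of all 32851 promoter windows of that length. The motifs GAGGAAGT, a core bound by ETS factors such as PU.1, and ACGTG, the core of the hypoxia response element, were in 0 and 0 of the members' windows, against 2.44% and 16.6% of all. TATAA was in 2 members (Cd300lf and Elmo1), against 22.8%. The GC box and TATAA counts of the members are per gene, with 2 windows for Elmo1. The background shares are per window over 27025 genes, not matched for level. These are letter matches within the windows searched, not measured binding.

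None of the 10 genes passed the test over all genes (limma with libraries unpaired, Benjamini-Hochberg adjusted p under 0.05). Of the 18899 genes tested 1.12% passed (0.561% higher, 0.556% lower). At an unadjusted limma p under 0.05 were 4 of the 10, against 19.9% of all tested genes. Mfge8 and Gas6 had lower levels with RvD1, by 0.29 and 0.26 on the log2 scale, and Cd300lf and Pros1 higher ones, by 0.30 and 0.17. The groups were apart in these 4 genes, where 25.4% of all tested genes were apart. Among the 10093 genes with a mean log2 level of at least 7, which all members exceed, 34.1% were apart and 1.95% passed the test, so the 4 of 10 are not far from that background. Of the 10 log2 fold changes 5 were positive and 5 negative, with a median of 0.03, against 0.0044 over all tested genes. The untreated libraries had an estimated depth of 9.05 to 14.3 M reads and the RvD1 libraries one of 11.1 to 16.3 M reads (M, mega). All levels below are log2 normalized reads as deposited, where a value of 0 stands for 1 normalized read or less.

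**Figure D1:**
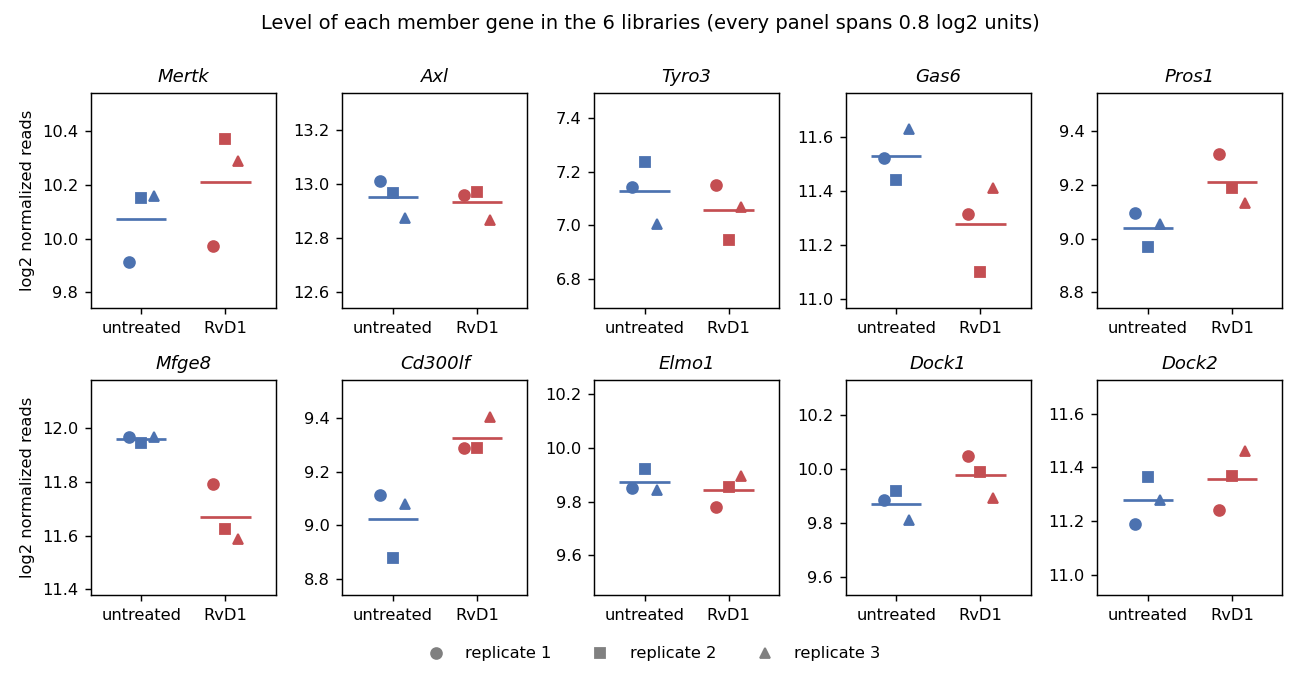
Log2 normalized reads (vertical axes, each panel spanning the same range) of each gene in the 3 untreated (blue) and 3 RvD1 (red) libraries, with a bar at each group mean and a marker shape per replicate number. The red and blue points are apart for Gas6, Pros1, Mfge8 and Cd300lf and overlap for the other genes.

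The 3 TAM receptors overlapped between the groups, with log2 fold changes from -0.07 for Tyro3 to 0.14 for Mertk. Axl (chromosome 7, 25757273 to 25788705, minus strand) was at 13.01, 12.97 and 12.88 in untreated replicates 1, 2 and 3 and at 12.96, 12.97 and 12.87 in RvD1 replicates 1, 2 and 3. The 6 values lay within a narrow band and the groups overlapped. Its fold change was 0.987 (95% interval 0.896 to 1.09; limma adjusted p = 0.897). Mertk (chromosome 2, 128698956 to 128802894, plus strand) was at 9.91, 10.15 and 10.16 in untreated and at 9.97, 10.37 and 10.29 after RvD1. Replicate 1 was the lowest library of both groups, and the other RvD1 libraries stood above all untreated ones. The fold change of Mertk was 1.10 (0.923 to 1.31; limma adjusted p = 0.542), an interval that takes in both a small decrease and an increase. Tyro3 (chromosome 2, 119797733 to 119818104, plus strand) was at 7.14, 7.24 and 7.0 in untreated replicates and 7.15, 6.95 and 7.07 with RvD1, which overlapped (fold 0.951, 0.802 to 1.13; limma adjusted p = 0.761).

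Of the bridging proteins, Mfge8 and Gas6 were at lower levels with RvD1. Mfge8, the milk fat globule protein that bridges phosphatidylserine to alpha-v integrins (chromosome 7, 79133768 to 79149060, minus strand), was at 11.97, 11.95 and 11.97 in untreated replicates 1, 2 and 3 and at 11.79, 11.63 and 11.59 in RvD1 replicates. The untreated values were almost equal, and every RvD1 library was below them. The fold was 0.817 (0.739 to 0.903; limma adjusted p = 0.0680), just short of the threshold. Without RvD1 replicate 1, the highest of its group, the log2 fold change was -0.35 and passed (limma adjusted p = 0.0346), and without any other library adjusted p lay between 0.141 and 0.225. Gas6, the ligand of all 3 TAM receptors (chromosome 8, 13465374 to 13494490, minus strand), was at 11.52, 11.44 and 11.63 in untreated and at 11.32, 11.10 and 11.41 after RvD1. Its highest RvD1 library lay just under its lowest untreated one, so the gap was narrow. Gas6 had a fold of 0.837 (0.730 to 0.960; limma adjusted p = 0.156), and without RvD1 replicate 2 the log2 fold change went from -0.26 to -0.17 (limma adjusted p = 0.369).

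Pros1, the vitamin K-dependent anticoagulant protein S and the ligand of Mertk and Tyro3 (chromosome 16, 62854307 to 62929346, plus strand), was at 9.10, 8.97 and 9.05 in untreated and at 9.31, 9.19 and 9.13 after RvD1. All RvD1 values were above the untreated ones, the nearest of them by a small margin. The fold was 1.13 (1.01 to 1.26; limma adjusted p = 0.223). The log2 level of Gas6 minus that of Pros1 in the same library was 2.43, 2.47 and 2.58 in untreated and 2.00, 1.91 and 2.28 after RvD1. The difference between the TAM ligands was thus smaller in every RvD1 library, by 0.43 on average (exact permutation test, two-sided, p = 0.1, the smallest that 3 against 3 libraries allow, and 0.3 adjusted over the 3 pairs compared). It was smaller by 0.18 once transcript length and GC content were corrected for, in which Gas6 and Pros1 differ (56.6% and 43.4% GC). The exact permutation p was then 0.3 before adjustment, so the groups were no longer fully apart. The difference between Axl and Mertk changed by -0.15 (2.88 ± 0.20 untreated and 2.72 ± 0.23 with RvD1, SD, n = 3; exact permutation p = 0.5, adjusted 0.75).

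Cd300lf was the member with the largest positive log2 fold change. It lies on chromosome 11 (115116214 to 115133992, minus strand) and was at 9.11, 8.88 and 9.08 in untreated replicates 1, 2 and 3 and at 9.29, 9.29 and 9.40 in RvD1 replicates. All 3 RvD1 libraries were above all untreated libraries. The fold was 1.23 (1.09 to 1.40; limma adjusted p = 0.0914), and over the fits without 1 library the log2 fold change ranged from 0.23 to 0.35 with adjusted p of 0.0978 to 0.257.

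In the engulfment module all 3 genes overlapped between the groups and none passed the test. Elmo1, the scaffold that holds Dock proteins in an active form (chromosome 13, 20090596 to 20608353, plus strand), was at 9.85, 9.92 and 9.85 in untreated and 9.78, 9.85 and 9.90 after RvD1 (fold 0.980, 0.895 to 1.07; limma adjusted p = 0.821). Dock1, the widely expressed Rac exchange factor also called DOCK180 (chromosome 7, 134670654 to 135173639, plus strand), was at 9.89, 9.92 and 9.81 in untreated and 10.05, 9.99 and 9.89 after RvD1 (fold 1.08, 0.975 to 1.19; limma adjusted p = 0.393). Dock2, its relative in blood cells (chromosome 11, 34226815 to 34783892, minus strand), was at 11.19, 11.36 and 11.28 in untreated and 11.24, 11.37 and 11.46 after RvD1 (fold 1.06, 0.943 to 1.18; limma adjusted p = 0.590). The intervals of the 3 folds included 1. Dock1 minus Dock2 in the same library changed by 0.03 (-1.41 ± 0.09 untreated and -1.38 ± 0.19 with RvD1, SD, n = 3; exact permutation p = 0.9, adjusted 0.9).

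**Figure D2:**
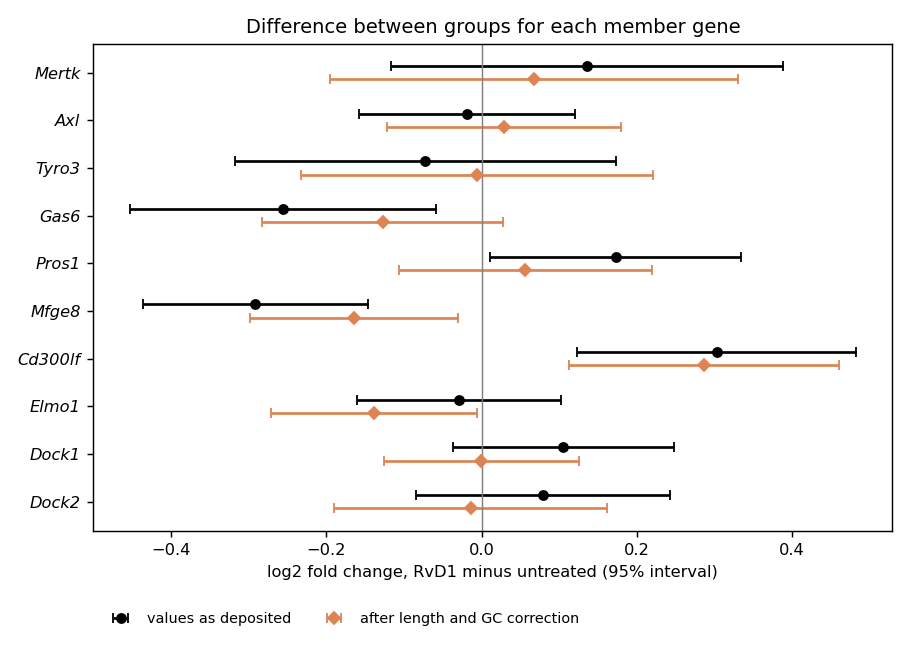
Log2 fold change of each gene, RvD1 minus untreated (horizontal axis), with the 95% interval of the limma fit on the values as deposited (black) and after the length and GC correction (orange). Mfge8 goes from -0.29 to -0.17 and Gas6 from -0.26 to -0.13 with the correction, while Cd300lf goes from 0.30 to 0.29.

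The members differ in transcript GC content, from 43.4% in Pros1 to 56.6% in Gas6, and in length, and were also fitted with both corrected for. Mfge8 (56.2% GC, longest transcript 2330 bases) went to -0.17 (-0.30 to -0.03; limma adjusted p = 0.326), and Gas6 (56.6%, 2548 bases) to -0.13 (-0.28 to 0.03; adjusted p = 0.507). Pros1 (43.4%, 3303 bases) went from 0.17 to 0.06 (-0.11 to 0.22; adjusted p = 0.816). Cd300lf (50.6%, 3929 bases), near a median GC content of 49.7% over annotated genes, went from 0.30 to 0.29 (0.11 to 0.46; limma adjusted p = 0.205). Elmo1 (46.9%, 5464 bases) moved down as Pros1 did, but away from 0, from -0.03 to -0.14 (-0.27 to -0.01; limma adjusted p = 0.394). Values of the other members after the correction lay between -0.01 for Dock2 and 0.07 for Mertk, and 0 of the 10 passed, where 0.162% of the 18549 genes in that fit did (limma). At an unadjusted p under 0.05 were 3 of the 10, against 12.1% of those genes.

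Levels of different genes were compared per kilobase of merged exons. Axl stood highest at 10.62 ± 0.07 in untreated and 10.60 ± 0.06 in RvD1 libraries (log2 per kilobase, SD, n = 3), above 97.7% of the tested genes with an annotation. Gas6 followed (10.18 ± 0.09 and 9.93 ± 0.16) and then Mfge8 (9.73 ± 0.01 and 9.44 ± 0.11). Next came Mertk (7.96 ± 0.14 and 8.09 ± 0.21), Dock2 (7.76 ± 0.09 and 7.84 ± 0.11), Pros1 (7.01 ± 0.07 and 7.18 ± 0.09) and Cd300lf (6.66 ± 0.13 and 6.96 ± 0.07). Dock1 (6.65 ± 0.05 and 6.76 ± 0.08), Elmo1 (6.22 ± 0.04 and 6.19 ± 0.06) and Tyro3 (4.50 ± 0.12 and 4.42 ± 0.10) were last. Over the 6 libraries the neighbours Mertk and Dock2, Pros1 and Cd300lf, and Cd300lf and Dock1 overlapped, and the other 6 neighbouring pairs did not. Among the receptors, Axl RNA per kilobase was 5.99 times that of Mertk and 71.0 times that of Tyro3. Among the TAM ligands, Gas6 was 7.78 times Pros1. With the longest transcript as the length, Mfge8 (10.59) stood above Gas6 (10.05), Dock2 (8.64) above Mertk (8.04) and Elmo1 (7.41) next to Pros1 (7.40). These ranks and the size of the ratios above thus depend on the gene model, while Axl (10.85) and Tyro3 (4.93) stayed at the ends.

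**Figure D3:**
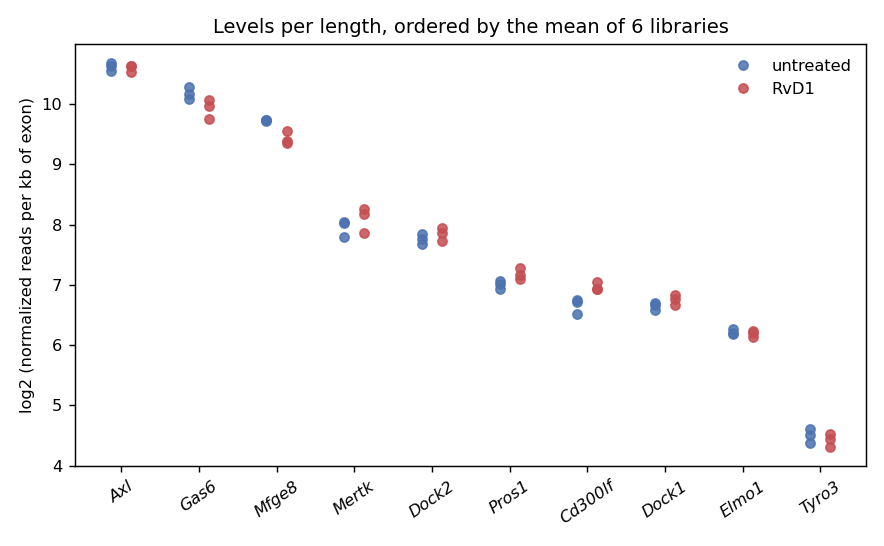
Level per kilobase of merged exons (log2, vertical axis) of each gene in the untreated (blue) and RvD1 (red) libraries, 1 point per library, in falling order of the mean. Axl, Gas6 and Mfge8 form the upper end between 9.36 and 10.68 and Tyro3 the lower end at 4.31 to 4.61.

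Cell types other than macrophages could hold part of these RNAs. The 8 macrophage markers, Csf1r, Lyz2 and Adgre1 among them, were detected in every library with a summed level of 16.62 to 16.99 in untreated and 16.68 to 17.03 in RvD1 libraries (log2 normalized reads). The summed level of 8 fibroblast and stroma markers was 15.33 to 15.56 in untreated and 15.21 to 15.84 in RvD1 libraries, mostly from the collagen genes Col1a1 and Col1a2. Over the 6 libraries Col3a1 was at 12.1 to 13.4, Pdgfrb at 10.9 to 11.6, Postn at 9.5 to 10.0 and Pdgfra at 8.8 to 9.5. Dcn was at 4.5 to 5.7, and Lum was at 0 in 3 libraries and at most at 1.93. Fibroblasts are known to make Axl, Gas6, Mfge8 and Dock1. RvD1 replicate 1 had the highest stromal value and also the highest sum of 5 endothelial markers, 10.11 against 8.69 and 9.11 in the other RvD1 and 8.27 to 9.01 in the untreated libraries. Sums of 8 neutrophil markers ran from 11.70 to 13.52 and from 12.05 to 13.44, with replicate 3 highest in both groups. Sums of 6 dendritic cell markers were 5.76 to 6.19 in untreated and 6.00 to 6.23 in RvD1 libraries, and those of 5 mast cell and basophil markers 6.30 to 6.81 and 6.60 to 7.57. The B cell markers Ms4a1 and Pax5, the T cell markers Cd3e and Cd3g and the erythroid marker Hbb-b1 were at 0 in all 6 libraries. Over whole lists, B cell sums (5 markers) were 4.83 to 5.52 and 5.08 to 5.39, T cell sums (5) 0.50 to 2.73 and 2.02 to 2.80, and erythroid sums (5) 2.06 to 2.38 and 0.77 to 2.31 in untreated and RvD1 libraries. The groups overlapped in all 9 sums and 0 marker genes passed the limma test. Single markers could still differ within a list. Postn was apart (9.47 to 9.67 untreated and 9.83 to 10.02 with RvD1, limma adjusted p = 0.0718), while Col1a1 overlapped with a log2 fold change of -0.11. Those of the 5 endothelial markers ran from 0.37 (Tie1) to 0.75 (Kdr). The part of these cells in the members' levels was not tested. In such bulk RNA, fewer cells of a type and less RNA per cell cannot be told apart.

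Of 100 other genes of apoptotic cell clearance, in 6 lists, 95 could be tested, and 1 rose (Dock4), 1 fell (Panx1) and 93 did not pass (limma), or 2.11% called against 1.12% of all tested genes. With no adjustment, 14 of the 95 were higher and 7 lower at p under 0.05, where 19.9% of all tested genes were at that p in either direction, the background for the counts by list below. Their groups were apart in 22 genes (23.2%, against 25.4%), and their median log2 fold change was 0.03, against 0.0044 over all tested genes. Most of the list genes had a mean log2 level of at least 7, where 1.95% of genes passed and 34.1% were apart.

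Dock4, an exchange factor of the same family as Dock1 and Dock2, rose 1.29-fold (1.17 to 1.42; limma adjusted p = 0.0386). It was at 8.89, 8.81 and 8.81 in untreated replicates 1, 2 and 3 and at 9.17, 9.23 and 9.23 in RvD1 replicates, with no overlap. In its list of 20 engulfment signalling genes, such as Rac1, Crk and Elmo2, 1 rose, 0 fell and 19 did not pass (median log2 fold change 0.05). The call of Dock4 ended with length and GC corrected for (0.20, adjusted p = 0.222). It also ended without 1 library in each case but RvD1 replicate 1 (0.36 to 0.40, adjusted p = 0.0945 to 0.157), without the filter on low genes (adjusted p = 0.0553) and without the variance trend (adjusted p = 0.178).

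Panx1, the channel through which dying cells release nucleotide find-me signals, fell to 0.626 of the untreated level (0.532 to 0.736; limma adjusted p = 0.0337). It was at 8.75, 8.89 and 9.12 in untreated and 8.22, 8.36 and 8.16 after RvD1, all RvD1 values being below the untreated ones. In its list of 13 find-me and do-not-eat-me genes 0 rose, 1 fell and 12 did not pass (median -0.02). With length and GC corrected for, the change was larger (-0.74) and the unadjusted limma p smaller (9.01e-05, against 0.000124). Its adjusted p was 0.0507, in a fit where 0.162% of genes passed, against 1.12% in the main fit. The call ended there and without 1 library in each case but RvD1 replicate 1 (-0.76 to -0.58, adjusted p = 0.0729 to 0.139). It ended as well without the filter on low genes (adjusted p = 0.0590) and without the variance trend (adjusted p = 0.178).

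In the other 4 lists no gene passed (limma). Among 17 tested receptors, 1 was higher and 2 were lower at an unadjusted p under 0.05 (median 0.06). Their smallest p-values belonged to Stab1, which encodes the scavenger and phosphatidylserine receptor stabilin-1 (log2 fold change -0.21, SE 0.07; limma adjusted p = 0.128), and to Scarb1, a lipoprotein receptor that also binds phosphatidylserine (-0.15, SE 0.06; adjusted p = 0.205). The receptor genes Timd4 and Adgrb1 were at 0 in all 6 libraries. Among 10 other bridging molecules, 1 was higher and 0 lower at that p (median 0.01). Thrombospondin-1, Thbs1, had a log2 fold change of 0.28 (SE 0.08; adjusted p = 0.117), and the pentraxin Ptx3 one of 0.49 (SE 0.26; adjusted p = 0.330).

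Among 18 genes of LC3-associated phagocytosis and corpse digestion, 3 were higher and 1 was lower at an unadjusted p under 0.05 (median 0.03). The autophagy genes Atg5 and Uvrag had log2 fold changes of 0.35 (SE 0.08; limma adjusted p = 0.0759) and 0.30 (SE 0.09; adjusted p = 0.125). Among 17 genes that shed, regulate or act downstream of TAM receptors, 4 were higher and 2 lower (median 0.02). The nuclear receptor gene Ppard was at 8.84, 9.12 and 9.21 in untreated and 8.74, 8.69 and 8.76 after RvD1, which did not overlap (-0.33, SE 0.09; adjusted p = 0.116). Adam17, the protease that cleaves Mertk and Axl from the cell surface, was at 11.03, 11.20 and 11.20 in untreated and 11.26, 11.47 and 11.41 after RvD1, which did not overlap either (0.23, SE 0.07; adjusted p = 0.135).

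**Figure D4:**
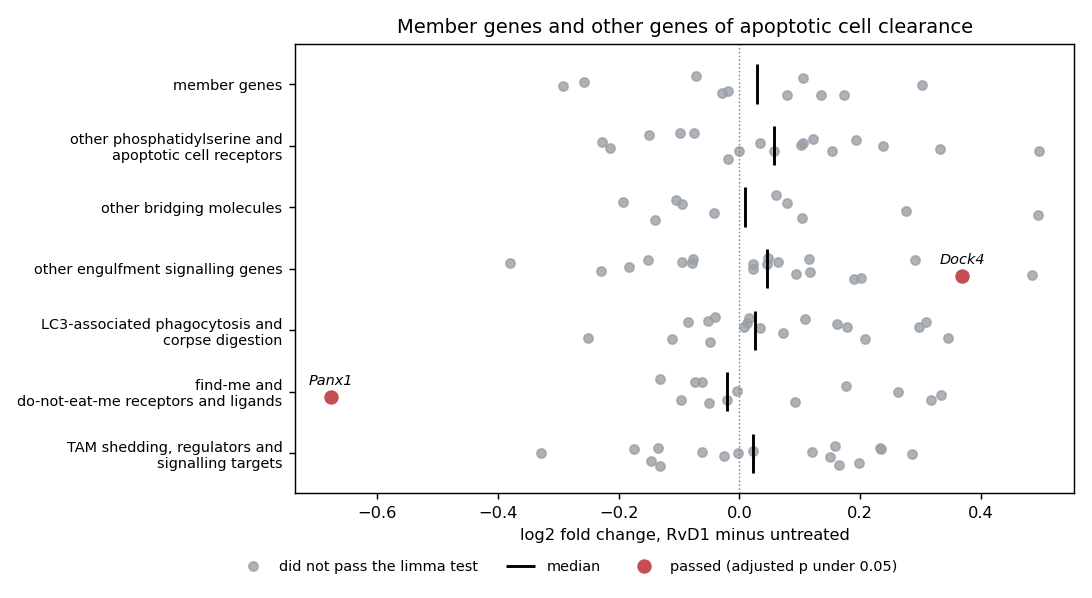
Log2 fold change, RvD1 minus untreated (horizontal axis), of the 10 members and of the 95 tested genes of 6 lists, 1 point per gene, with the median of each list as a black bar and genes past the limma test in red. Dock4 and Panx1 are the red points, and the medians lie between -0.02 and 0.06.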

How the data were processed

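Poly-A selected RNA was sequenced from 3 untreated and 3 RvD1 libraries, grouped by sample title, and table columns were matched to samples by group and number. The authors deposited 1 table of 38087 genes described as normalized, per the file headers, whose values fit log2 normalized reads with a floor at 0. TopHat2 2.0.7 and mm10 are named in the submitters' processing notes, and the sources used here do not give the counter or the normalization. Depth was estimated from the step between low values, taken as 1 read.

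Genes above 0 in at least 3 libraries (18899) were tested as deposited with limma 3.58.1 (R 4.3.3), with a variance trend, two-sided, with Benjamini-Hochberg adjustment. Paired members were compared by exact permutation tests. The fit was also run on simulated data, without replicate effects and with larger changes than the members showed. GENCODE M21 (mm10) gave positions, exon lengths and GC content, and holds 36308 of the identifiers. The length and GC correction subtracted splines with 4 degrees of freedom in each. Members and lists were chosen with earlier results of these data known. All members are named, with up to 4 genes past the test per list, or else the 2 with the smallest p. Alternatives were quantile normalization, median centring, no filter or a stricter one, a pseudocount, no variance trend, the length and GC correction, a replicate block and leaving out each library. Figures were drawn with matplotlib 3.10.9.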

Additional observations from a re-analysis of the deposited data

How the results depend on the processing

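The counts of genes called over the whole table (106 higher, 105 lower) depended strongly on the settings, and 0 members were called in 12 of 15 alternatives. After the length and GC correction 14 genes were higher and 16 lower, without a filter 5 and 7, without the variance trend 1 and 0, and with median centring 60 and 98. Leaving out 1 library gave 0 to 239 higher and 0 to 212 lower genes, with 239 and 212 without RvD1 replicate 1. In these fits 0 to 1 members were lower, Mfge8 being the 1 without RvD1 replicate 1, and 0 were higher. Of the list genes 0 to 3 were higher and 0 to 1 lower. The list genes called were 0 higher and 0 lower after the length and GC correction, without a filter and without the variance trend.

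The replicate numbers were not taken as pairs, because equally numbered libraries matched unevenly. Their deviations correlated by 0.30, -0.08 and 0.42 for numbers 1, 2 and 3, and untreated replicate 2 correlated best with RvD1 replicate 1. The macrophage marker sums rose from replicate 1 to 3 in both groups (16.62, 16.72 and 16.99 untreated, 16.68, 16.81 and 17.03 with RvD1). So did the neutrophil marker sums (11.70, 12.37 and 13.52 untreated, 12.05, 12.57 and 13.44 with RvD1). Pairing was thus not settled, and the main fit leaves any effect shared by equal numbers in its spread. With a replicate block 1049 genes were higher and 847 lower. Of the list genes 15 were higher (Dock4 among them, limma adjusted p = 0.0135) and 6 lower (Panx1 among them, 0.00781). In that fit 1 member was higher (Cd300lf, adjusted p = 0.0268) and 2 lower (Mfge8, 0.0126, and Gas6, 0.0146). When the replicate block was joined with the length and GC correction, 306 genes were higher and 456 lower, 6 list genes higher and 6 lower, and 1 member lower (Mfge8, adjusted p = 0.0484). Panx1 passed in this joint fit (limma adjusted p = 0.00863) and Dock4 did not (0.0787).

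Signs turned only for members near 0. After the length and GC correction, with or without the block, Axl was at 0.029, Dock1 at -0.00034 and Dock2 at -0.014. Over the fits without 1 library Axl ranged from -0.057 to 0.015 and Elmo1 from -0.055 to 0.0017, and the difference between Dock1 and Dock2 from -0.068 to 0.12. The difference between Gas6 and Pros1 moved from -0.43 to -0.18 after the length and GC correction. The other 6 members kept their direction in all 15 alternatives. The cause of these changes was not tested. With 3 libraries per group the 95% intervals of the members span 0.26 to 0.50 on the log2 scale, which limits what differences can be seen.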
